A study of Mus musculus with 8 samples.

Results

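The matrix proteases described here are 10 mouse genes: the secreted proteases Adamts1, Adamts2, Adamts4, Adamts5, Adamts9, Adamts10, Adamts12 and Adamts15, the related secreted protein Adamtsl2, and the membrane-anchored Adam12. They were chosen by symbol with earlier results of these data known, each matched 1 locus, and all 10 were found among 35299 loci. RNA of the heart border zone was measured by poly(A) RNA-seq in C57BL/6J mice of 12 weeks, 2 weeks after surgery, with 4 Sham samples and 4 samples with a myocardial infarct (MI). Both groups carry the same strain and no genotype or agent is given. Groups follow the titles, which match the treatment field. For all MI samples the field for the source of the RNA says Sham instead, and 4 of the 8 descriptions give the other surgery. Only the Sham titles carry a remark that they are a reanalysis, so whatever that remark stands for and the infarct cannot be told apart. The series states 4 biological replicates per condition.

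ADAMTS proteases are secreted zinc enzymes that carry thrombospondin-like repeats and cut matrix proteins outside the cell. Some cut hyalectans, the large proteoglycans that bind hyaluronan, such as versican and aggrecan; others trim procollagens or work with fibrillin microfibrils. In the heart they take part in valve and chamber development and in the turnover of the matrix. ADAM proteases share the zinc site but are held in the membrane, where they release growth factors and other surface proteins.

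The libraries held 108 to 161 M reads in loci for Sham and 165 to 190.2 M for MI. All levels below are normalised reads per locus, the read count divided by 1 factor per library; differences are log2(MI/Sham) of value plus 1, and adjusted p-values are from limma with Benjamini-Hochberg adjustment over 19186 tested loci. The tissue held heart muscle RNA: Actc1, the cardiac actin, was between 1149695 and 1640532 in the 8 libraries. Of 6 cardiomyocyte markers 5 were lower in MI, and their summed level was 4035267 to 4843289 in Sham and 2839560 to 3346602 in MI. All 8 fibroblast markers were higher, with a summed level of 76484 to 85997 in Sham and 180470 to 259030 in MI. In such bulk samples fewer cells of a type and less RNA per cell cannot be told apart. Of the markers of other cells, 4 of 5 macrophage, 6 of 6 lymphocyte, 3 of 3 tested neutrophil, 4 of 7 smooth muscle and pericyte, and 1 of 7 endothelial genes were higher. Of 8 listed neutrophil markers only 3 were high enough to be tested, though no list held a marker at 0 in all libraries. Lymphocyte markers summed to 132 to 282 in Sham and 224 to 627 in MI, and only 2 of the 6 had groups without overlap. Atrial muscle markers stood apart by library: Myl7, an atrial myosin light chain, was 11.9, 12.5, 2.27 and 118 in Sham replicates 1 to 4, and 9.94, 4564, 1532 and 830 in MI replicates 1 to 4. All 3 atrial markers were called higher, with a median difference of 4.96 and overlapping groups. Of 4 epicardial markers 3 were called higher. The 3 atrial markers summed to 187 to 585 in Sham and to 274 to 12698 in MI, where replicate 1 held the lowest sum. The part of these cell markers in the results below was not tested.

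Enzymes of this family hold zinc with 3 histidines around a glutamate in a short stretch. That stretch is shown because it separates the catalytic members from Adamtsl2. Searched for in the GENCODE coding sequence, it was found once in 9 of the 10 genes and not in Adamtsl2. The 36 bases are given 5′ to 3′ with the codons of the histidines and the glutamate in capitals.
Adamts1: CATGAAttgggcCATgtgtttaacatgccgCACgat
Adamts2: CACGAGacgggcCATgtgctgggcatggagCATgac
Adamts4: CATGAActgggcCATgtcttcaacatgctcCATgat
Adamts5: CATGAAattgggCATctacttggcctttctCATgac
Adamts9: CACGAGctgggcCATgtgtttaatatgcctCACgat
Adamts10: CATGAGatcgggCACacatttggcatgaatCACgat
Adamts12: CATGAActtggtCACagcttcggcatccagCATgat
Adamts15: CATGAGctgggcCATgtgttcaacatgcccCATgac
Adam12: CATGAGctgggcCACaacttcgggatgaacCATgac
In 8 of the 9 genes an exon junction splits the stretch, while in Adam12 it lies within exon 11, at GRCm38 chr7:133961155-133961190 on the minus strand. The eighth codon begins with aa in 4 genes, Adamts1, Adamts4, Adamts9 and Adamts15, known to cut hyalectans, and with gg in the other 5, among them the hyalectan-cutting Adamts5. The search allowed only glycine or asparagine there, and asparagine was added after a form with glycine alone missed those 4 genes. That no other start occurs therefore follows from the search. Pairs of genes shared 20 to 32 of the 36 bases, and the closest pair was Adamts4 and Adamts15 with 32.

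Of the 10 genes 8 were higher in MI, 0 were lower and 2, Adamts1 and Adamts5, did not pass the test; over all tested loci 20.8% were called higher and 20.1% lower. In 6 of the 10 every MI sample lay above every Sham sample, which held for 19.7% of tested loci. As the 10 were chosen with earlier results of these data known, these counts beside all loci are a description and not a test. The median difference of the 10 was 1.54 on the log2 scale, beside -0.02 over all tested loci. All 10 passed the filter on low values. Summed per kilobase of exon, they gave 3787 ± 945 in Sham and 8067 ± 782 in MI (SD, n = 4), with ranges of 3172 to 5182 and 6965 to 8735 that did not overlap.

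**Figure D1:**
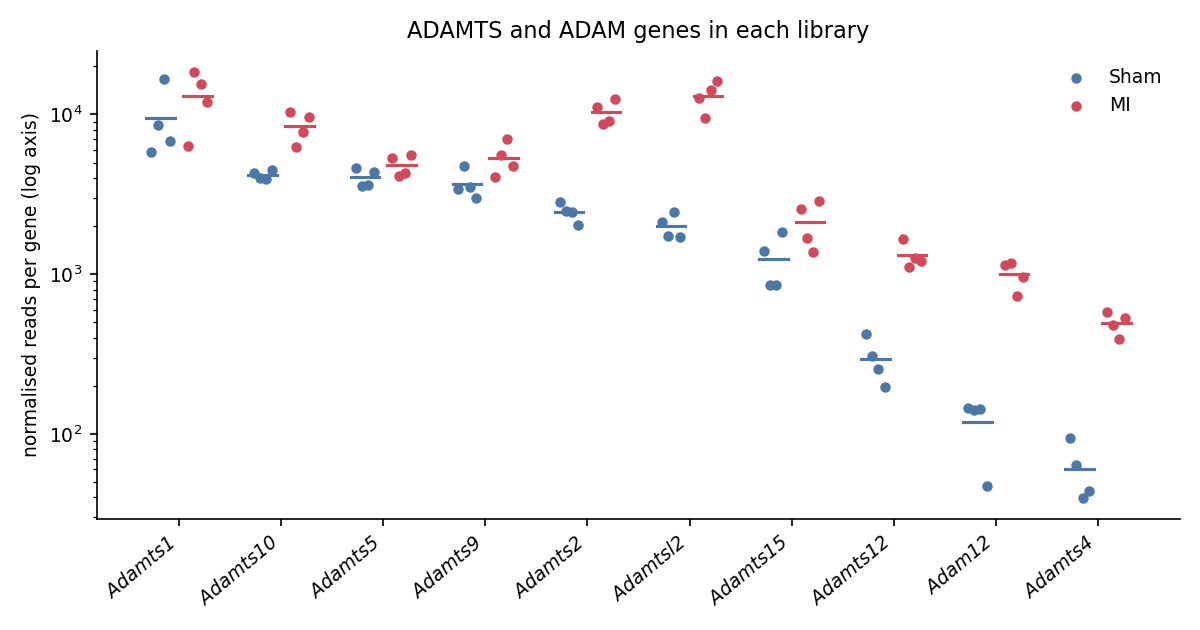
Normalised reads of each gene in the 8 libraries on a log axis, 1 point per sample. In 6 genes all MI points lie above all Sham points; in Adamts1, Adamts5, Adamts9 and Adamts15 the groups overlap.

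Adamts2, which removes the amino-terminal propeptide of fibrillar procollagens, lies at mm9 chr11:50415511-50624683 on the plus strand. It was 2816, 2477, 2440 and 2023 in the Sham replicates and 11183, 8742, 9136 and 12531 in the MI replicates. The groups were far apart, with the lowest MI sample above the highest Sham sample. Adamts2 rose by 2.09 ± 0.13 (SE) on the log2 scale, from 2439 ± 325 to 10398 ± 1780 (SD, n = 4; limma adjusted p = 3.63e-06). Of its exon bases 7232, or 56.7%, are shared with Zfp354c on the opposite strand, and whether reads were counted by strand is not given in the sources used here. Zfp354c itself was 391 in Sham and 815 in MI on average. The part of the overlap in the Adamts2 values was not tested.

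Among the hyalectan-cutting enzymes Adamts4 rose, Adamts9 and Adamts15 passed the test with overlapping groups, and Adamts1 and Adamts5 did not pass. Adamts4, an aggrecan- and versican-cutting enzyme at mm9 chr1:173180553-173192364 on the plus strand, was the scarcest gene per kilobase of the 10. It was 94.3, 63.8, 39.8 and 44.1 in the Sham replicates and 577, 478, 395 and 535 in the MI replicates, without overlap. These values rest on 28 to 79 reads in Sham and 480 to 871 in MI. The difference was 3.09 ± 0.26 (log2, SE, n = 4 per group; limma adjusted p = 1.62e-05).

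Adamts5, the other main aggrecan-cutting enzyme, lies at mm9 chr16:85854289-85904963 on the minus strand. It was 4630, 3566, 3620 and 4367 in Sham and 5375, 4138, 4271 and 5580 in MI replicates 1 to 4. The MI samples 2 and 3 lay within the range of the Sham samples. The difference was 0.26 ± 0.12 (log2, SE, n = 4 per group; limma adjusted p = 0.123). When the values were scaled to library totals it was 0.56 with adjusted p = 0.00804, a scaling that moved the median of all loci to 0.29 and under which 44.5% of loci were called higher.

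Adamts1, a versican-cutting enzyme, lies on the same strand of mm9 chr16:85794073-85803344, 50.9 kb from Adamts5. It was 5838, 8601, 16572 and 6775 in Sham and 6376, 18447, 15537 and 11991 in MI replicates 1 to 4. Sham replicate 3 was above 3 of the 4 MI samples, and MI replicate 1 was lower than 3 of the 4 Sham samples. The difference was 0.49 ± 0.36 (log2, SE, n = 4 per group; limma adjusted p = 0.305). Its coefficient of variation was 51.7% in Sham and 39.7% in MI. It was 0.30 without Sham replicate 1 and 0.29 without MI replicate 2, and 0.80 without Sham replicate 3 or MI replicate 1; none of these was called.

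Adamts9, a further versican-cutting enzyme, lies at mm9 chr6:92722693-92893472 on the minus strand. It was 3425, 4774, 3499 and 2993 in Sham and 4084, 5546, 7058 and 4774 in MI replicates 1 to 4. MI replicate 1 lay below Sham replicate 2. Adamts9 rose by 0.54 ± 0.18 (log2, SE, n = 4 per group; limma adjusted p = 0.0305). The call was lost without Sham replicate 1, 3 or 4 or MI replicate 2 or 3 (adjusted p 0.0644, 0.0646, 0.0828, 0.0600 and 0.0776).

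Adamts15, a further hyalectan-cutting enzyme, lies at mm9 chr9:30706740-30730037 on the minus strand. It was 1403, 861, 859 and 1835 in Sham and 2547, 1673, 1384 and 2888 in MI replicates 1 to 4. MI replicates 2 and 3 lay below the highest Sham sample. Adamts15 rose by 0.79 ± 0.29 (log2, SE, n = 4 per group; limma adjusted p = 0.0473). That call was lost without Sham replicate 1, 2 or 3 or MI replicate 1 or 4, where the adjusted p was 0.0507, 0.121, 0.123, 0.125 and 0.124, and in DESeq2 with 0.0692.

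Adamts12, which cuts cartilage oligomeric matrix protein (COMP), lies at mm9 chr15:10994545-11278993 on the plus strand. It was 421, 306, 255 and 197 in Sham and 1658, 1106, 1270 and 1209 in MI replicates 1 to 4. The groups did not overlap. Adamts12 rose by 2.19 ± 0.21 (log2, SE, n = 4 per group; limma adjusted p = 3.91e-05).

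The microfibril-related members both rose. Adamts10, which acts with fibrillin, lies at mm9 chr17:33660579-33691101 on the plus strand. It was 4290, 3998, 3946 and 4495 in Sham and 10382, 6260, 7806 and 9600 in MI replicates 1 to 4. The Sham samples lay close together and all MI samples lay above them. The difference was 1.0 ± 0.14 (log2, SE, n = 4 per group; limma adjusted p = 0.000315).

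Adamtsl2, which binds fibrillin and the latent TGF-beta binding protein and has no protease domain, lies at mm9 chr2:26932851-26965108 on the plus strand. It was 2125, 1737, 2437 and 1711 in Sham and 12604, 9502, 14309 and 16120 in MI replicates 1 to 4. Every MI sample was several times the highest Sham sample. It rose by 2.70 ± 0.16 (log2, SE, n = 4 per group; limma adjusted p = 2.96e-06), which was the smallest adjusted p of the 10 genes.

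Adam12, a membrane protease that can release heparin-binding EGF and cut IGF-binding proteins, lies at mm9 chr7:141074883-141416780 on the minus strand. It was 146, 141, 142 and 47.3 in Sham and 1143, 1175, 732 and 956 in MI replicates 1 to 4. The Sham sample 4 was lowest, and no MI sample came near the Sham samples. Adam12 rose by 3.17 ± 0.33 (log2, SE, n = 4 per group; limma adjusted p = 5.93e-05), the largest difference of the 10 genes. That rank rests on Sham replicate 4: without it the difference was 2.78 for Adam12 and 2.96 for Adamts4.

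**Figure D2:**
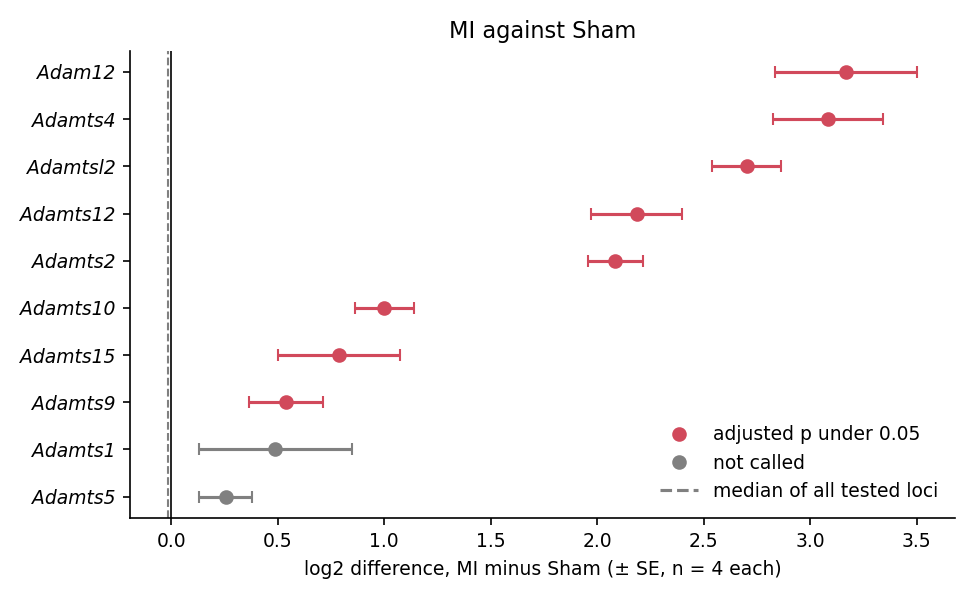
Difference of MI from Sham on the log2 scale for each gene with its standard error (limma, 4 samples per group), colour marking an adjusted p under 0.05 and the dashed line the median of all tested loci. Adam12 and Adamts4 show the largest differences, 3.17 and 3.09, and Adamts5 the smallest, 0.26.

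MI replicate 1 held few atrial markers. In it 8 of all 10 genes, and 7 of the 8 called genes, were higher than in every Sham sample. The calls used that library too, so the count for the called genes was partly fixed in advance. The share over all tested loci was not counted. The part of atrial tissue in these values was not tested.

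Per kilobase of exon Adamts1 had the highest level in both groups, 1943 ± 1005 in Sham and 2692 ± 1069 in MI (SD, n = 4). In Sham the order went on with Adamts10, Adamtsl2, Adamts9, Adamts5, Adamts15, Adamts2, Adamts12, Adam12 and Adamts4. Only the steps from Adamts1 to Adamts10, from Adamts10 to Adamtsl2 and from Adamts2 to Adamts12 had ranges without overlap; other neighbours did not separate. In MI the order was Adamts1, Adamtsl2, Adamts10, Adamts2, Adamts9, Adamts15, Adamts5, Adam12, Adamts12 and Adamts4. There the steps from Adamtsl2 to Adamts10, Adamts2 to Adamts9, Adamts5 to Adam12 and Adamts12 to Adamts4 had ranges without overlap. Adamtsl2 went from 315 to 2067 per kilobase, from the third place to the second. The length used is the merged exon bases of all transcripts at a locus, such as 4861 for Adamts1 and 15810 for Adamts5. Bases shared with another locus were not taken out. The order between genes and the shares below rest on these lengths.

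**Figure D3:**
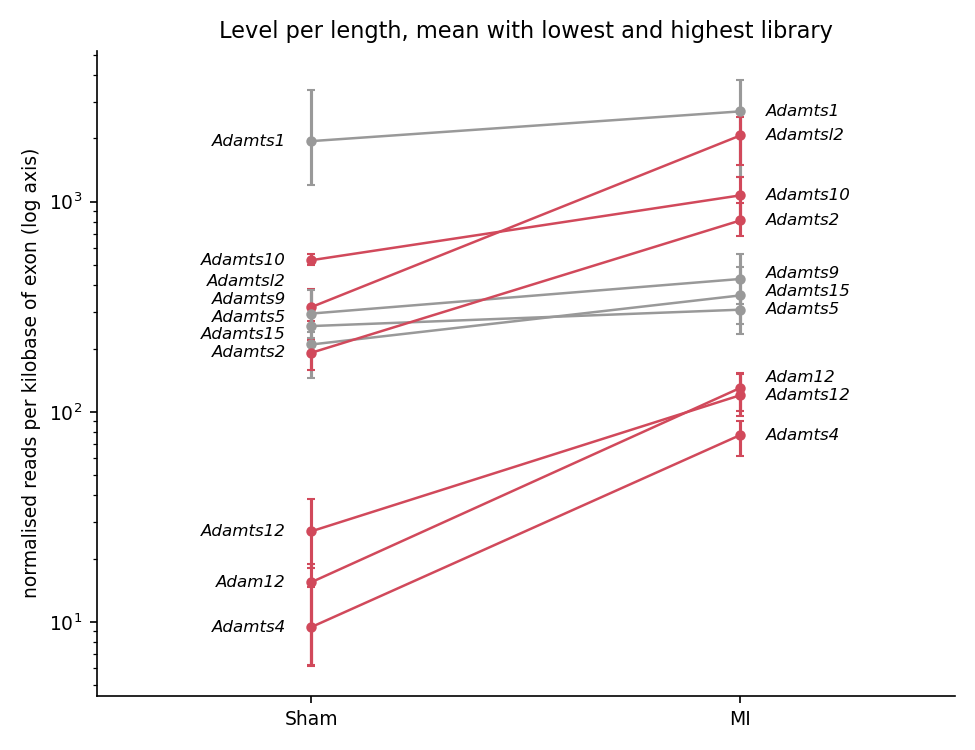
Normalised reads per kilobase of exon for each gene, Sham and MI, on a log axis, as the mean of 4 libraries with a bar from the lowest to the highest. Lines in colour join genes whose mean at least doubled. Adamts1 stands highest in both groups and Adamts4 lowest.

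Of the summed level per kilobase Adamts1 held 49.1% in Sham and 32.9% in MI, with overlapping groups. Adamtsl2 held 8.49% in Sham and 25.6% in MI, with ranges of 7.40 to 10.5% and 18.5 to 29.0%. Its exact permutation p was 0.029 (two-sided, n = 4 per group), the smallest these groups can give, and 0.0571 after adjustment over the 10 shares. Adamts2, Adamts4, Adamts12 and Adam12 also had higher shares in MI in all samples, with that same p. None of the 10 shares passed the adjustment.

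Ratios, 16 in all, set a gene against a substrate, an inhibitor or a relative. They are not corrected for length, so only their change is read. With exact permutation tests (two-sided, 4 against 4 samples) 12 of the 16 passed adjustment, each with p = 0.029 and an adjusted value of 0.0381. Adamts4 rose against Adamts5 by 2.83 ± 0.26 (log2, SE). Among the enzymes and their substrates, Adamts2 fell by 1.14 ± 0.19 against Col1a1, the main fibrillar collagen chain, and Adamts12 fell by 3.55 ± 0.46 against Comp. Adamts5 fell by 1.74 ± 0.13 against Vcan, the versican gene, while Adamts4 rose by 1.09 ± 0.23 against it. Adamts10 fell by 1.42 ± 0.23 against Fbn1, the fibrillin-1 gene, and Adamtsl2 rose by 3.04 ± 0.27 against Ltbp1. Adam12 rose by 3.24 ± 0.58 against Timp3, the inhibitor bound to matrix, and by 2.66 ± 0.33 against Adam19. Adamts2 rose against its relative Adamts14 by 1.49 ± 0.31.

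**Figure D4:**
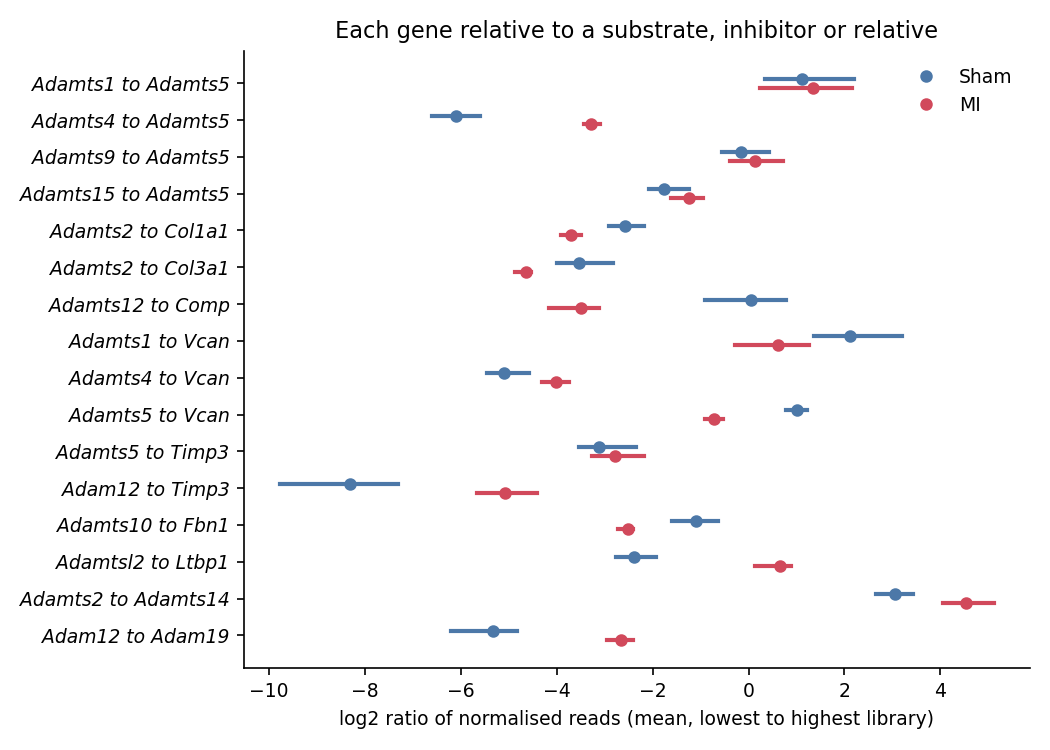
Log2 ratio of normalised reads for 16 pairs of a gene and a substrate, inhibitor or relative in Sham and MI, with the mean as a point and a line from the lowest to the highest of 4 libraries. The Sham and MI means lie farthest apart for Adamts12 to Comp, which fell by 3.55, and for Adam12 to Timp3, which rose by 3.24.

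The ratios that did not pass were those of Adamts1, Adamts9 and Adamts15 to Adamts5 and of Adamts5 to Timp3. They changed by 0.23, 0.28, 0.53 and 0.32 (exact permutation p = 0.743, 0.429, 0.0857 and 0.343, two-sided, 4 against 4 samples). Without 1 library the first of these ran from -0.04 to 0.60, the second from 0.09 (without MI replicate 3) to 0.47 (without Sham replicate 2), and the last from 0.12 (without MI replicate 1) to 0.58 (without Sham replicate 1). All 12 passing ratios lost the adjusted call without MI replicate 1, where the adjusted p was 0.0508 or 0.0762, while their size moved little (Adamts4 to Adamts5 was 2.81) except that of Adamts1 to Vcan, which went from -1.51 to -1.21. The ratios of Adamts1 and Adamts4 to Vcan also lost it without MI replicate 2, 3 or 4, and that of Adamts1 to Vcan without Sham replicate 3 (adjusted p = 0.0762).

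Of 10 other ADAMTS proteases tested, 7 were higher and 1 lower in MI, with a median difference of 0.72. Adamts16 was 2.39, 2.28, 2.27 and 0 in Sham and 241, 170, 81.5 and 169 in MI replicates 1 to 4. Adamts8, a hyalectan-cutting relative, rose by 2.82 ± 0.23 (log2, SE, limma adjusted p = 1.54e-05) from 89.9 to 658. Adamts7, which like Adamts12 cuts COMP, fell by 0.73 ± 0.20 from 4118 to 2440 (limma adjusted p = 0.0123). Of 5 tested ADAMTS-like genes 2 were higher and 1 lower, where Adamtsl3 rose by 0.78, Adamtsl5 rose by 0.28 and Adamtsl4 fell by 0.35. Of 10 tested other ADAM genes 4 were higher and 1 lower, where Adam9 and Adam19 rose by 0.50 each and Adam22 fell by 0.59.

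Of 9 inhibitors and clearance receptors 5 were higher and 0 lower, with a median of 0.59. Timp1, an inhibitor of metalloproteases, rose by 4.32 ± 0.21 from 163 to 3198, and Lrp1, a receptor that takes up several of these enzymes, rose by 1.0 ± 0.12. Timp3 differed by -0.07 ± 0.20 (limma adjusted p = 0.812). Of 11 tested hyalectan and aggregating matrix genes 9 were higher, with a median of 1.72, among them Comp by 5.73 and Acan, the aggrecan gene, by 4.21. Of 12 procollagen and microfibril genes 11 were higher and 1, Ltbp1, lower, with a median of 2.33; Col1a1 rose by 3.22 and Col3a1 by 3.20. Of 10 genes listed for activation and modification, not all of them enzymes, 7 were higher and 0 lower. Among them Sdc1, a syndecan, rose by 1.80 and Tll1, a tolloid protease, by 1.66. These lists sit in a tissue in which the fibroblast markers also rose.

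For each gene the nearest other profile over the 8 samples was named among 14116 loci. Each profile was first centred on its own Sham mean on the log2 scale, which removes the level. Nearness was then the root mean square difference, so a like difference of MI from Sham makes 2 genes near. The nearest were Ms4a4a for Adamts1 (0.221), Mmp2 for Adamts2 (0.0733), Gm49212 for Adamts4 (0.218), Fhod1 for Adamts5 (0.0568) and Pde3b for Adamts9 (0.106). They were Fgd3 for Adamts10 (0.0843), Trpm6 for Adamts12 (0.176), Dtx4 for Adamts15 (0.186), Lman1l for Adamtsl2 (0.142) and Selp for Adam12 (0.279). Mmp2, a gelatinase, went from 7973 to 31930.

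Within 20 kb of the 10 genes 14 loci were tested, of which 4 were higher and 3 lower in MI. Over all tested loci 20.8% were called higher and 20.1% lower, and so few loci cannot be told apart from these shares. Adamts9 shares 166 exon bases with A730049H05Rik, which was 24.8 in Sham and 36.6 in MI.

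Adamts1 varied widely within each group, with an SD of 4887 in Sham beside group means of 9447 and 13088. Its deviations ran against those of Adamts5 in the same libraries, so both are plotted with the other members that split the libraries alike.

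**Figure D5:**
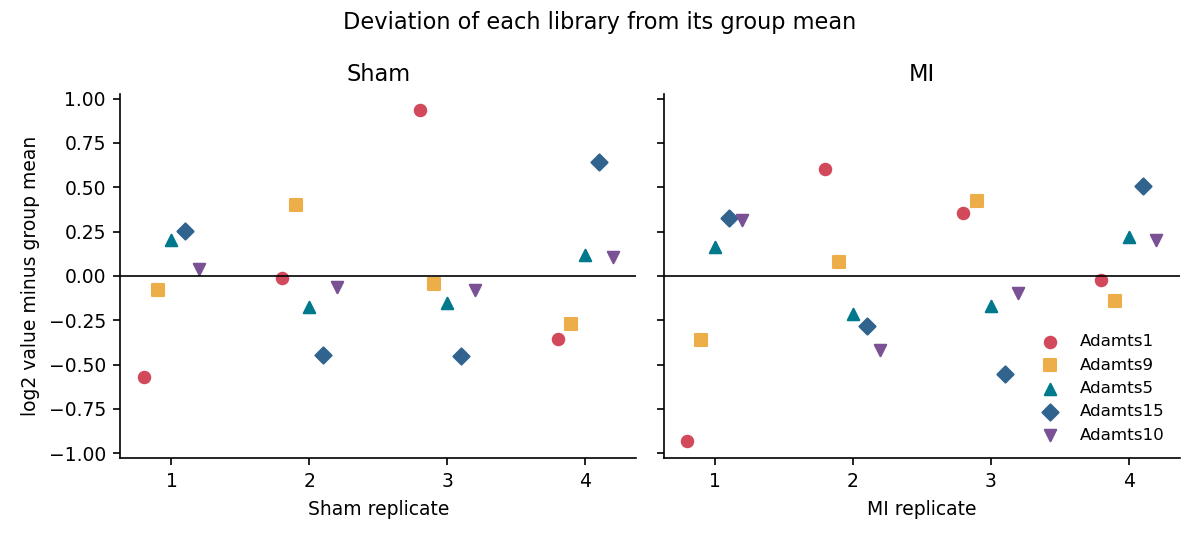
Log2 level of Adamts1, Adamts9, Adamts5, Adamts15 and Adamts10 in each library minus the mean of its group, for Sham and MI. In both groups replicates 1 and 4 lie below replicates 2 and 3 for Adamts1 and Adamts9, and above them for Adamts5, Adamts10 and Adamts15.

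The Adamts1 promoter is shown because its coefficient of variation was the highest of the 10 genes in each group. The 100 bases before its RefSeq start, GRCm38.p6 chr16:85803114-85803213 on the minus strand, are given with the TATAAA letters in capitals, 32 bases before the start.
Adamts1 promoter: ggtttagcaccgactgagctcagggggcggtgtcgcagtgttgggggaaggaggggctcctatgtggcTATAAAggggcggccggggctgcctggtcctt
The RefSeq table held 300 bases, 250 of them before the start, for 5 of the 10 genes: Adamts1, Adamts2, Adamts9, Adamts12 and Adamtsl2. Of 6 motifs searched on both strands of all 300 bases, TATAAA was found in 2 of the 5 genes, Adamts1 and Adamtsl2. It was in 13.6% of 32851 promoters. The AP-1 motif TGANTCA, the CRE motif TGACGTCA, the TEAD motif GGAATG, the RUNX motif TGTGGT and the SMAD motif GTCTAGAC were in none of the 5, and in 7.81%, 1.79%, 14.7%, 16.8% and 0.213% of all promoters.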

How the data were processed

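The members and the lists of related genes were chosen with earlier results of these data known. Per the labels' protocols, border zone RNA went through poly(A) selection and paired-end sequencing. The submitters' processing notes name build mm9, DESeq, HTSeq 0.5.4p2, Cufflinks 2.0.2 and TopHat2 2.0.5, with no settings. The deposited table holds a normalised signal per locus, made by the authors. Each of its values was a whole multiple of a step per library, within 0.000001, for all values, so reads were recovered. Fits on these reads, with edgeR 4.0.16 and DESeq2 1.42.0, served as alternatives, and edgeR called 8 members higher and DESeq2 7. The main test was limma 3.58.1 (trend) on log2(signal + 1) for loci with a mean of at least 10, adjusted by Benjamini-Hochberg, at a threshold of 0.05. A count of 0 allows 3 reads, 1.99 to 4.73 normalised reads, which covers counting error only. Libraries of a group all differed beyond sampling noise (chi-square over its degrees of freedom 31.2 to 133).

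Loci were named by exon and intron lengths against GENCODE M21, and 20284 of 35299 got a name. The named genes are the 10 members, the 2 called genes with the largest difference in each direction in each list, the genes of a ratio, and the nearest profile of each member. Named outside this rule, after their values were seen, were Actc1, Myl7, Upk3b, Nr4a1, Atf3, Fosb, Btg2 and the loci that share exon bases with a member. Adamtsl1, Adam8, Furin and Pcolce had no locus of their own. The zinc stretch was first searched with a glycine codon at position 8. This form missed 4 members, so asparagine was then allowed too. The script was tested on simulated data. The alternatives were another pseudocount, filter, scaling, tool or replicate block, and leaving out each library. One result on an overlapping locus is not reported here.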

Additional observations from a re-analysis of the deposited data

Results flagged for a closer look

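In Sham replicate 4 Adam12 stood far from the other Sham samples, at 47.3 normalised reads (30 reads) against 141 to 146. Its gap to the nearest sample was 0.955 of the group's range. This was 1 of 20 groups of 4 samples tested, and chance flags about 1 in 20. Without Sham replicate 4 Adam12 still rose, and over the 8 fits that left out 1 library each the difference ran from 2.78 to 3.31 on the log2 scale.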

How the results depend on the processing

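The count of members higher in MI was 8, and 6 to 9 under the alternatives; 0 were lower in any of them. It was 6 or 7 when 1 library was left out, 7 with no filter, upper-quartile scaling, robust moderation or DESeq2, and 9 with the replicate block or with scaling to library totals, under which 44.5% of all loci were called higher. With MI replicate 1 as the only MI library, picked after its atrial markers were seen, it was 6, and 9.45% of all loci were called higher; 1 library cannot show how MI samples vary. In the replicate block fit Adamts5 had adjusted p = 0.0159 and Adamts15 adjusted p = 2.62e-04 (limma). Correlations of same-numbered samples were 0.146, 0.272, 0.160 and -0.000918; as not all were over 0.1, the numbers were not taken to pair the samples. Over all tested loci Sham replicates 2 and 3 correlated best with their own number. Sham replicate 1 did so with MI replicate 4, and Sham replicate 4 with MI replicate 1. For the ratios the block gave p = 0.125, the smallest 4 pairs allow in an exact permutation test. Adamts15 lost its call with no filter (adjusted p = 0.0535), upper-quartile scaling (0.0666) and robust moderation (0.0765). The direction turned for Adamts1 with MI replicate 1 alone (-0.44), and for the ratio of Adamts1 to Adamts5 without Sham replicate 1 (-0.02) or MI replicate 2 (-0.037), where the range over single left-out libraries was -0.037 to 0.60. It also turned for the Adamts10 share without MI replicate 2 (0.166 percentage points, range -2.84 to 0.166). The cause was not tested. 6 shares passed adjustment when levels were not divided by length, and 6 did so without Sham replicate 3. Depth limits mainly Adamts4 and Adam12 in Sham, which rest on 28 to 125 reads.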

Other observations

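A pattern by library was noticed in these data and not tested. In both groups replicates 1 and 4 lay above replicates 2 and 3 for Adamts5, Adamts10 and Adamts15, and below them for Adamts1 and Adamts9. How many of all loci split the libraries this way was not counted, so the pattern may not be particular to these genes. The ratio of Adamts1 to Adamts5 was 1.26, 2.41, 4.58 and 1.55 in Sham and 1.19, 4.46, 3.64 and 2.15 in MI replicates 1 to 4. Immediate early genes, which cells switch on within minutes of a stimulus and which were picked after the Adamts1 values had been seen, were high in some of the same libraries. Nr4a1 was 1135, 6521, 24356 and 1116 in Sham and 2419, 15759, 9104 and 2441 in MI. Atf3 was 395, 1195, 8258 and 807 in Sham and 932, 4112, 5872 and 2180 in MI. Sham replicate 3 was the highest Sham sample for Adamts1, Nr4a1 and Atf3.

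Adamts8 lies 17749 bases from Adamts15 on the opposite strand, and rose by 2.82 on the log2 scale where Adamts15 rose by 0.79. Epicardial markers were uneven: Upk3b was 1846 in MI replicate 3 and at most 125 in the other libraries.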
